A study of Mus musculus with 6 samples.

Results

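The 10 genes Trem2, Tyrobp, Clec7a, Cd84, Axl, Cd9, Gpnmb, Cst7, Spp1 and Csf1, known from the activation program of disease-associated microglia, were followed through stroke by their transcript levels. They were taken by gene symbol, matched to the Ensembl identifiers in the files, and are 10 of the 15441 genes with a value in at least 1 library. The cerebral cortex on the injured side was analysed in male C57/BL6J mice of 6 to 8 weeks after photothrombosis, in which the dye Rose Bengal is given and light through the skull closes cortical vessels. Stroke libraries were made on days 1, 3, 7, 14 and 28 after it, and the control was a sham group that had the operation without the light and was taken 7 days later. The RNA of 3 mice was pooled for each group, so there was 1 library per group. No spread between mice is known, and no difference has a replicate check or a p-value. The poly(A)-selected, strand-specific libraries were read as paired ends of 150 bases to a stated mean of 33.6 M reads, and the depth of each library is unknown.

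Microglia, the resident macrophages of the brain, pass from a homeostatic state into a disease-associated state when they meet dying cells, lipids or aggregates. The surface receptor TREM2 senses lipids and apolipoproteins and signals through the adaptor TYROBP and the kinase SYK, and the later stage of the state, with Cst7, Spp1, Gpnmb, Clec7a, Cd9, Axl and Csf1, is known to need TREM2. Several of these genes are also made by macrophages that enter from blood and by other brain cells.

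Taken over the time course, 9 of the 10 genes were at their highest FPKM, a read number scaled to transcript length and library size, on day 7 post-stroke and 1, Cst7, on day 14. Onset was set as the first day at which a gene had at least 1 FPKM and a log2 ratio to sham of at least 1, with 0.1 added to each FPKM and a gene that was not listed taken as 0. By this rule Spp1 had its onset on day 1, 8 genes had it on day 3, and Axl reached it on no day. Among the 2092 genes of the whole table with an onset, 28.8% had it on day 1 and 35.5% on day 3, and 26.7% were highest on day 7, which was the case for 8 of the 9 members with an onset. At day 28 the members were back to between 0.775% and 10.8% of their largest FPKM difference from sham.

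At day 1, 8 of the 10 genes had at least 1 FPKM in sham or in the stroke library and could be compared. Of these 1, Spp1, was higher than sham by a log2 ratio of at least 1, against 5.11% of all genes compared. At day 3, 9 of 10 were higher, against 8.54% of all genes. The number was 9 of 10 on day 7 (8.53% of all genes), 8 of 10 on day 14 (8.97%) and 4 of 10 on day 28 (3.68%), and no member was lower by that size on any day. Cst7, Clec7a and Gpnmb were under 1 FPKM in sham, so they entered a comparison only through the stroke library and could not come out lower. Among the other 7 members, 1, 6, 6, 5 and 1 were higher from day 1 to 28, with none lower. The count on day 28 rests on low levels, since it was 1 with a filter at 5 FPKM and 2 with a log2 threshold of 2. The median log2 ratio of the members listed in both libraries was 0.50 on day 1 (8 genes), 1.93 on day 3, 2.76 on day 7, 2.22 on day 14 and 0.56 on day 28 (9 genes each), while the median of all genes compared lay between 0.01 and 0.10. In cortex as a whole, more cells that make a transcript and more transcript per cell cannot be told apart, nor can fewer cells and less transcript per cell.

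**Figure D1:**
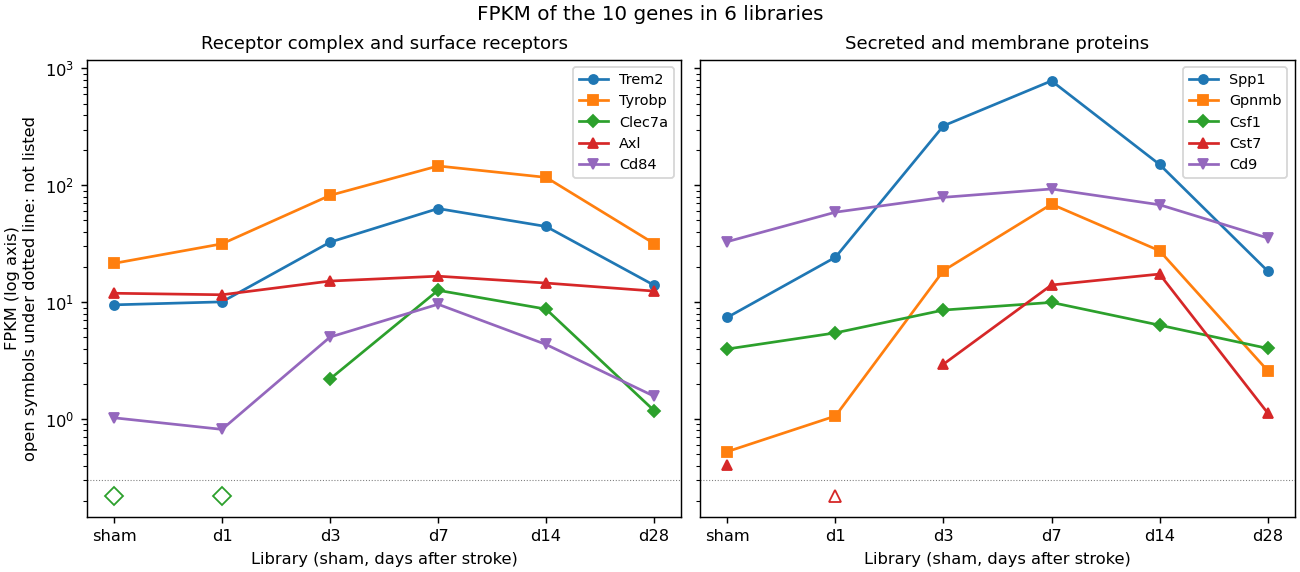
FPKM on a log axis (y) in the sham library and the libraries of day 1 to 28 post-stroke (x), 1 point per library, for receptors on the left and for secreted and other membrane proteins on the right, with open symbols under the dotted line for a gene that was not listed. Spp1 passes from 7.42 FPKM in sham to 783 FPKM on day 7, Axl stays between 11.6 and 16.7 FPKM, and Cst7 is the gene highest on day 14.

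Trem2 encodes the receptor and Tyrobp, at chr7:30413760-30417585, its signalling adaptor, also called DAP12, which serves other myeloid receptors as well. Trem2 had 9.49 FPKM in sham, 10.1 on day 1, 32.6 on day 3, 63.2 on day 7, 44.4 on day 14 and 14.0 on day 28. Tyrobp had 21.5 FPKM in sham, 31.6 on day 1, 82.0 on day 3, 146 on day 7, 117 on day 14 and 31.7 on day 28. Both genes were within 1 log2 unit of sham on day 1 and on day 28 and highest on day 7, where Trem2 was 6.66-fold and Tyrobp 6.81-fold its sham FPKM. The log2 ratios to sham on days 3, 7 and 14 were 1.77, 2.72 and 2.22 for Trem2 and 1.93, 2.76 and 2.44 for Tyrobp. The FPKM of Trem2 per FPKM of Tyrobp was 44.2% in sham, 31.9% on day 1, 39.8% on day 3, 43.2% on day 7, 38.0% on day 14 and 44.0% on day 28. Receptor and adaptor therefore kept nearly the sham proportion on day 7 and 28, with the lowest proportion on day 1. On day 14 the proportion and the order of the log2 ratios depended on transcript length. The longest annotated transcript has 597 bases for Tyrobp and 4784 for Trem2. After the length correction described with Cst7, Trem2 had 48.2 FPKM on day 14 and Tyrobp 86.9, with log2 ratios of 2.33 and 2.01.

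The annotated Trem2 gene lies at chr17:48346401-48354147 on the plus strand, and the files split its transcripts by an alternative 3' splice site that lengthens exon 4 by 55 bases, as in an annotated GENCODE transcript. The added coding stretch is shown because its length is not a multiple of 3, so that its use shifts the reading frame (GRCm38, GENCODE M21 transcript sequence):
Trem2 exon 4 extension, chr17:48351691-48351745, plus strand: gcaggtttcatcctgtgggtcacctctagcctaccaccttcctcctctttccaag
The longer exon took 17.2% of the FPKM of this splicing event in sham, 19.97% on day 1, 18.0% on day 3, 9.25% on day 7, 0.00493% on day 14 and 21.7% on day 28. The share was thus lower on day 7 than in sham and close to 0 on day 14. In FPKM, the longer form had 1.64 in sham, 5.88 on day 3 and 5.85 on day 7, while the shorter form went from 7.86 in sham to 26.7 on day 3 and 57.3 on day 7. The level difference between day 3 and day 7 thus lay in the shorter form. A second variant, in which the first exon is extended into the intron, took 5.52%, 0.595%, 5.02%, 9.58%, 0.192% and 5.68% of the Trem2 start FPKM from sham to day 28. How precise these shares are is unknown, since they are estimates from 1 library each.

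Clec7a encodes dectin-1, a lectin receptor of myeloid cells for beta-glucans that also signals through SYK. It was not listed in sham or on day 1, and had 2.20 FPKM on day 3, 12.6 on day 7, 8.72 on day 14 and 1.18 on day 28. No ratio is given against a library in which it was not listed. From day 7, 69.0% of the FPKM was left on day 14 and 9.35% on day 28.

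Clec7a lies at chr6:129461591-129472779 on the minus strand, and its transcripts differ by exon 3, a coding exon of 135 bases, a multiple of 3, shown as the stretch that parts the 2 forms (GRCm38, GENCODE M21 transcript sequence):
Clec7a exon 3, chr6:129468869-129469003, minus strand: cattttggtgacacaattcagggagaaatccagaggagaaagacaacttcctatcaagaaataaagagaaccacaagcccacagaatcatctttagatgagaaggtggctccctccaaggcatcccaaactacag
Transcripts with this exon were listed on day 7 only, at 1.27 FPKM against 11.4 FPKM without it, a share of 10.1%. In the other libraries in which Clec7a was listed, the files gave a value only to transcripts without the exon.

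Cd84, at chr1:171839697-171890718, encodes a SLAM family receptor of leukocytes that binds itself on neighbouring cells. Its FPKM was 1.03 in sham, 0.817 on day 1, 5.03 on day 3, 9.603 on day 7, 4.35 on day 14 and 1.57 on day 28, which is 9.36-fold the sham value on day 7. The log2 ratio to sham was -0.30 on day 1, 2.19 on day 3, 3.11 on day 7, 1.98 on day 14 and 0.57 on day 28. These values rest on a single event, the inclusion of an exon, because the files list no transcript start for Cd84, and its transcript end was between 0.000564 and 0.0819 FPKM. Taken from the transcript ends alone, the log2 ratio on day 7 was 0.52. The ends had 0.0265 FPKM in sham and 0.0819 on day 7, both under the 0.1 FPKM added, so this ratio is largely set by that addition. The size of the Cd84 difference thus depends on the exon event.

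Axl encodes a receptor tyrosine kinase that takes up dying cells by way of its ligand GAS6. It had 11.9 FPKM in sham, 11.6 on day 1, 15.2 on day 3, 16.7 on day 7, 14.6 on day 14 and 12.4 on day 28. Its log2 ratio to sham was at most 0.48, on day 7, a fold of 1.40. Like the other receptors Axl was highest on day 7, but at a far smaller ratio, and it was higher on day 3 than on day 14, as was Cd84. Cd84 kept this order after the length correction described with Cst7. Axl did not, with corrected log2 ratios to sham of 0.319 on day 3 and 0.329 on day 14. Of its 4 partners, 1 passed a log2 ratio of 1 on day 3 and on day 7 and none on day 1, 14 or 28, and none was lower by that size. That gene was Pros1, the ligand protein S, with 3.65 FPKM in sham, 6.43 on day 1, 11.1 on day 3, 9.91 on day 7, 5.86 on day 14 and 4.55 on day 28. Gas6 had 26.4 FPKM in sham and 37.5 on day 7, the related receptor Mertk 9.01 and 11.3, and the related receptor Tyro3 56.5 and 39.2.

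Axl lies at chr7:25757273-25788705 on the minus strand, and the files split its transcripts by the small coding exon 10, of 27 bases, which is shown because it is the stretch kept or skipped (GRCm38, GENCODE M21 transcript sequence):
Axl exon 10, chr7:25773099-25773125, minus strand: ggcaaggacagccactccaccatctgg
Skipping of this exon alone had 0.933 FPKM in sham, 0.00289 on day 1 and 0.00183 on day 3 and was not listed later. Skipping of it together with neighbouring exons had 0.128 FPKM on day 3 and 0.0836 on day 28 and was not listed otherwise. Transcripts without exon 10 took 7.84% in sham, 0.0251% on day 1, 0.85% on day 3 and 0.669% on day 28, and none were listed on day 7 or 14. The share was thus over 1% in the sham library alone.

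Cd9, at chr6:125460266-125494791, encodes a tetraspanin, a membrane protein that organises other receptors and is also made by oligodendrocytes, astrocytes and vessels. It had the highest sham level of the 10 genes, 33.0 FPKM, with 58.9 on day 1, 78.9 on day 3, 93.0 on day 7, 68.2 on day 14 and 35.4 on day 28. Its log2 ratio was 0.83 on day 1, 1.26 on day 3, 1.49 on day 7, 1.05 on day 14 and 0.10 on day 28. Cd9 had therefore reached 43.2% of its largest FPKM difference on day 1 and 76.5% on day 3, earlier than Trem2, which was at 1.07% and 43.0%. Among 7 other tetraspanins, 0 were higher on day 1, 3 at each of days 3, 7 and 14, and 1 on day 28, and none was lower. Cd37, under 1 FPKM in sham, entered only through the stroke library and could not come out lower. Among the 6 with at least 1 FPKM in sham, 0, 2, 2, 2 and 0 were higher from day 1 to 28, and none was lower. Of the 7, the 3 with the largest ratios were Cd37, Cd53 and Cd63. The leukocyte tetraspanins Cd37 and Cd53 had log2 ratios of 2.96 and 2.16 on day 7, and the late endosome tetraspanin Cd63 had 1.29 on day 3.

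Gpnmb, at chr6:49036546-49070929, encodes a membrane glycoprotein of lysosome-rich macrophages, known as a marker of cells loaded with lipid. It had 0.528 FPKM in sham, where only its transcript end was listed, then 1.06 on day 1, 18.6 on day 3, 68.9 on day 7, 27.6 on day 14 and 2.60 on day 28. Its fold on day 7 was 131, the highest of the 9 members listed in sham, but it rests on that low sham value. With 1 FPKM added in place of 0.1, the log2 ratio of Spp1 on day 7, 6.54, was above that of Gpnmb, 5.52. The log2 ratio was 0.89 on day 1, 4.90 on day 3, 6.78 on day 7, 5.46 on day 14 and 2.11 on day 28, the largest on day 28 among the members listed in sham. The FPKM of Gpnmb per FPKM of Tyrobp was 2.45% in sham, 3.37% on day 1, 22.7% on day 3, 47.1% on day 7, 23.6% on day 14 and 8.20% on day 28. Unlike Trem2, Gpnmb was thus out of the sham proportion to Tyrobp from day 3 on. The MiT family transcription factors, which drive lysosomal genes and are known regulators of Gpnmb, had 4 genes in the list, of which 3 could be compared and 0 of these 3 were higher on any day. Tfeb had 3.09 FPKM in sham and 4.23 on day 7, and Tfe3 7.31 and 7.63. Mitf had 1.73 FPKM in sham and 1.97 on day 7 but was not listed on day 1 or 14, where it counts as lower, and Tfec, which was not compared, was listed on day 3 with 0.655 FPKM and on day 7 with 0.430, and in no other library.

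Cst7, at chr2:150570415-150578944, encodes cystatin F, an inhibitor of lysosomal cysteine proteases. It had 0.403 FPKM in sham, from its transcript end only, was not listed on day 1, and had 2.95 FPKM on day 3, 14.0 on day 7, 17.4 on day 14 and 1.13 on day 28. The log2 ratio was 2.60 on day 3, 4.81 on day 7, 5.12 on day 14, a fold of 43.2 in FPKM, and 1.29 on day 28. Cst7 was the member that was higher on day 14 than on day 7, by 0.31 on the log2 scale. In the day 14 library the log2 ratio to sham fell with transcript length across all genes (Spearman's rho of -0.41 across genes), and after a correction for length Cst7 had 13.2 FPKM on day 7 and 13.04 on day 14, so that its highest day then was day 7. The same correction put Cd9 at a log2 ratio of 0.63 on day 14, under the threshold of 1. Of 9 other cystatins and cathepsins that cystatin F acts on, 7 had a value, and 0, 4, 4, 3 and 0 were higher from day 1 to 28, with none lower. Ctsh had the largest ratio, 2.49 on day 3, and Ctsc, the protease that cystatin F is best known to restrain, had 3.79 FPKM in sham, 15.4 on day 3, 14.1 on day 7 and 9.23 on day 14. Ctsl had a log2 ratio of 1.91 on day 7. Ctsc and Ctsh were highest on day 3 and Ctsl on day 7, while Cst7 was highest on day 14, or on day 7 after the length correction.

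Spp1 encodes osteopontin, a secreted protein of matrix and immune cells that binds integrins and CD44. It had 7.42 FPKM in sham, 24.3 on day 1, 323 on day 3, 783 on day 7, 151 on day 14 and 18.5 on day 28. At day 7 it ranked 10th of the 13987 genes listed, against 6036th of 13267 in sham, and it was 105-fold its sham FPKM. The log2 ratio was 1.69 on day 1, 5.42 on day 3, 6.70 on day 7, 4.33 on day 14 and 1.31 on day 28. Spp1 was the member whose level left the day 7 value fastest, with 19.3% left on day 14, where Trem2 had 70.3% left. The FPKM of Spp1 per FPKM of Tyrobp was 34.5% in sham, 76.8% on day 1, 394% on day 3, 535% on day 7, 129% on day 14 and 58.3% on day 28.

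The Spp1 gene lies at chr5:104435118-104441050 on the plus strand, with transcripts at 2 start sites. The promoter window of 300 bases around each is shown because the use of the sites differed by library (RefSeq, GRCm38.p6, 5' to 3', with capitals for the PU.1 core GAGGAAGT):
Spp1 upstream promoter, chr5:104434861-104435160, plus strand: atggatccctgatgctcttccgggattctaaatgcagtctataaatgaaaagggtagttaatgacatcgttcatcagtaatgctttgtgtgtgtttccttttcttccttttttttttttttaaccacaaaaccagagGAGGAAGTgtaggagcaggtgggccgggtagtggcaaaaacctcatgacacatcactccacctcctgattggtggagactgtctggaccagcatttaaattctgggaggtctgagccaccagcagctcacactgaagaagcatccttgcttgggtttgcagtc
Spp1 downstream promoter, chr5:104435942-104436241, plus strand: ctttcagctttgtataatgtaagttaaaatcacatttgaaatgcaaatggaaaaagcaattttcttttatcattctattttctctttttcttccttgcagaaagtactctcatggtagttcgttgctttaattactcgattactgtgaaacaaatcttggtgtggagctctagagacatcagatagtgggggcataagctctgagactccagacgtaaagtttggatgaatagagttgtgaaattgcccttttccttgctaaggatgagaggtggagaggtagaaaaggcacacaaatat
The downstream start, the annotated start of a GENCODE transcript, had 0.976 FPKM in sham, 0.361 on day 1, 289 on day 3, 1.48 on day 7, 0.718 on day 14 and 1.5005 on day 28. Its share of the Spp1 start FPKM was 13.1% in sham, 1.49% on day 1, 89.7% on day 3, 0.189% on day 7, 0.476% on day 14 and 8.10% on day 28. The upstream start had 33.4 FPKM on day 3 and 781 on day 7. The day 3 library thus stood alone in giving most of the Spp1 signal to the downstream start, while the summed level of both starts was highest on day 7, as in 8 other members. The first exon of the downstream start, chr5:104436192-104436442, covers a separately listed exon at chr5:104436375-104436442. Whether transcripts from the 2 starts differ in coding sequence was not tested. Which start the reads themselves show was not tested, since reads were not used here.

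**Figure D2:**
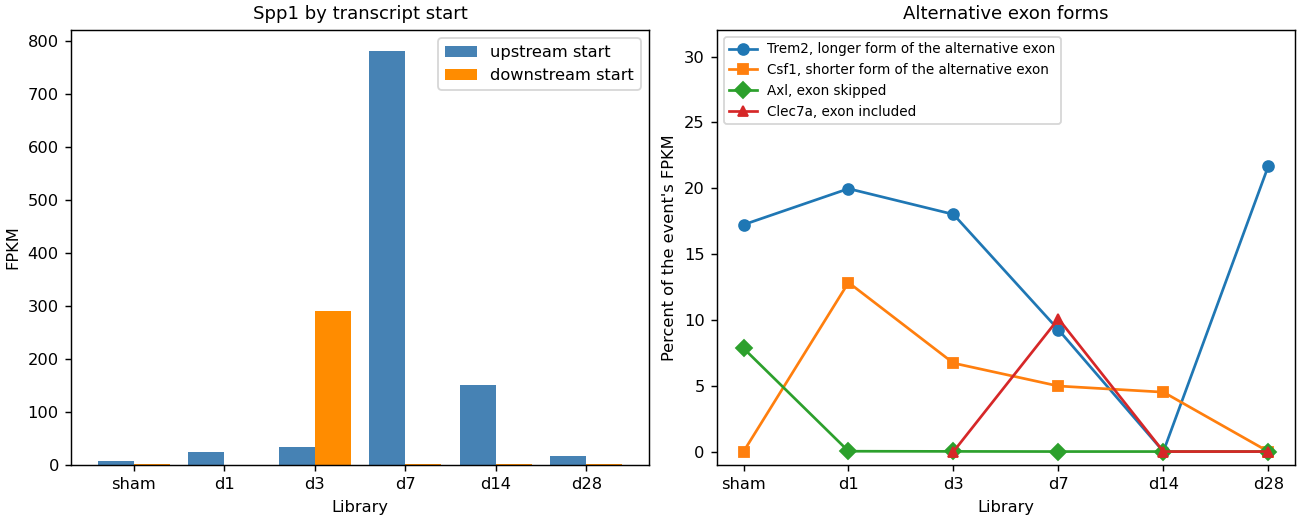
On the left, FPKM (y) of the upstream and the downstream Spp1 start in each of the 6 libraries (x). On the right, the percent of an event's FPKM (y) that fell to the named form of Trem2, Csf1, Axl (exon 10 skipped alone) and Clec7a in each library (x), where 0 stands for a form not listed and no point is drawn where neither form was listed. The downstream Spp1 start is the taller bar on day 3 alone, with 289 FPKM, and the longer Trem2 exon has its lowest share on day 14.

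Csf1, at chr3:107741048-107760469, encodes the growth factor of microglia and macrophages that binds CSF1R. It had 3.98 FPKM in sham, 5.46 on day 1, 8.57 on day 3, 9.96 on day 7, 6.36 on day 14 and 4.03 on day 28, a fold of 2.50 on day 7. Its log2 ratio was 0.45 on day 1, 1.09 on day 3, 1.30 on day 7, 0.66 on day 14 and 0.02 on day 28, so that Csf1 was past the threshold on days 3 and 7 only. A shorter form of exon 6, an exon whose alternative use is known to part secreted from cell-surface CSF1, was not listed in sham or on day 28 and took 12.8% of the event on day 1, 6.72% on day 3, 4.98% on day 7 and 4.51% on day 14. Of the 10 genes for partners of osteopontin and CSF1, 9 were compared on days 1 to 14 and 8 on day 28. From day 1 to 28, 1, 4, 4, 2 and 0 of them were higher, and 1 was lower on day 1. Cd44, under 1 FPKM in sham, entered only through the stroke library and could not come out lower. Among the 8 genes with at least 1 FPKM in sham, 0, 3, 3, 1 and 0 were higher, and 1 was lower on day 1. The median log2 ratio of all partners compared was between -0.05 on day 1 and 0.91 on day 3. The osteopontin receptor Cd44 had 0.582 FPKM in sham, 4.01 on day 1 and 5.33 on day 3, its highest value, which precedes that of Spp1. The receptor Csf1r had 23.9 FPKM in sham and 52.3 on day 7, a log2 ratio of 1.12, and Il34, the other CSF1R ligand, had 20.8 and 19.0. Itgb5, an integrin chain, had a log2 ratio of 1.58 on day 7. Itga4, another, was the gene lower on day 1, with 1.20 FPKM in sham and 0.168 on day 1.

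Promoters of 9 of the 10 genes were in the RefSeq table, in 11 windows of 300 bases, and Tyrobp had none there. Among 5 motifs searched on both strands, the AP-1 motif TGANTCA was in 4 of the 11 windows, those of Trem2, Cst7, Gpnmb and Cd84, and in 7.81% of all 32851 promoters. The first 3 windows hold it within 10 bases of the RefSeq start, at -9, -6 and 8 counted from the first transcribed base as 0, and Cd84 at -229. For Gpnmb the RefSeq start is chr6:49036518, while the libraries list a start at chr6:49036546, and the match lies upstream of the latter. The 4 windows are shown for this feature (RefSeq, GRCm38.p6, 5' to 3', with capitals for TGANTCA and, in Cd84, also for the NF-kB motif):
Trem2 promoter, chr17:48346151-48346450, plus strand: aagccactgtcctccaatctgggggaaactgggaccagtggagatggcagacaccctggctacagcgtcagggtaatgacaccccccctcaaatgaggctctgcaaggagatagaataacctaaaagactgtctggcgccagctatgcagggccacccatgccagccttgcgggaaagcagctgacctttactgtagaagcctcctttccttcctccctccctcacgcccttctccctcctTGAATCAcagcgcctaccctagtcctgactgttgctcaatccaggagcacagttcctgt
Cst7 promoter, chr2:150570165-150570464, plus strand: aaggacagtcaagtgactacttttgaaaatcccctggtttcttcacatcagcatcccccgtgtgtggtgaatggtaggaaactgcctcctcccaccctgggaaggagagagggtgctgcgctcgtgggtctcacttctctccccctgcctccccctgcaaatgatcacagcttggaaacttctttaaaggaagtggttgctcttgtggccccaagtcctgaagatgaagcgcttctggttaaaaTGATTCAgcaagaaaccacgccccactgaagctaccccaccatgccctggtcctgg
Gpnmb promoter, chr6:49036268-49036567, plus strand: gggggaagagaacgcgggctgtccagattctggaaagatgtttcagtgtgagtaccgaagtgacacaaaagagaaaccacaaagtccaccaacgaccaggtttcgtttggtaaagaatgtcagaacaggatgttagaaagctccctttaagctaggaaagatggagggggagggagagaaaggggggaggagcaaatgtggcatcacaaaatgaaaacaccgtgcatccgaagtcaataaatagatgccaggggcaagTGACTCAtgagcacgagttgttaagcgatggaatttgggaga
Cd84 promoter, chr1:171839447-171839746, plus strand: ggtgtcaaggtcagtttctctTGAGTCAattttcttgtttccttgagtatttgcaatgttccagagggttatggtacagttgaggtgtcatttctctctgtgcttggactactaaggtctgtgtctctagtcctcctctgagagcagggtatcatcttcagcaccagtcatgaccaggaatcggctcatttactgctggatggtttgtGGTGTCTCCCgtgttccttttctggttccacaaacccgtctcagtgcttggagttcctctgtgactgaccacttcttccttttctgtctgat
The PU.1 core GAGGAAGT, the letters bound by a factor of myeloid cells, was in 1 of 11 windows, the upstream one of Spp1 at -113, and in 3.2% of all promoters. The E-box CACGTG was in 0 of 11 (7.15% of all), the M-box CATGTG in 1 of 11, that of Cd9 (14.2%), and the NF-kB motif, GGG and CC parted by 5 bases, in 4 of 11, those of Cd84, Csf1, Cd9 and Axl (50.8%). No matches of different motifs overlapped, and in Csf1 neighbouring matches of the NF-kB motif did. A match is a description of the letters in the window, and the 2 Clec7a windows overlap almost wholly.

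Between neighbouring days, 7 of 10 members were higher on day 3 than on day 1 by a log2 ratio of at least 1, with a median of 2.09, against 8.89% of all genes. From day 3 to day 7, 4 of 10 were higher by that size (3.22% of all genes), and each of the 10 had a ratio above 0, with a median of 0.94. These 4 were Clec7a at 2.47, Cst7 at 2.21, Gpnmb at 1.88 and Spp1 at 1.28. From day 7 to day 14, 3 of 10 were lower by that size (8.52% of all genes), namely Spp1 at -2.38, Gpnmb at -1.32 and Cd84 at -1.13, with a median of -0.52. From day 14 to day 28, 7 of 10 were lower (7.88% of all genes), with a median of -1.77 and the largest step for Cst7, -3.83. Cst7, Clec7a and Cd84 were under 1 FPKM or not listed on day 1 and entered the first step only through day 3, where they could only be higher. Among the other 7 members, 4 were higher on day 3 than on day 1, with a median of 1.37.

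**Figure D3:**
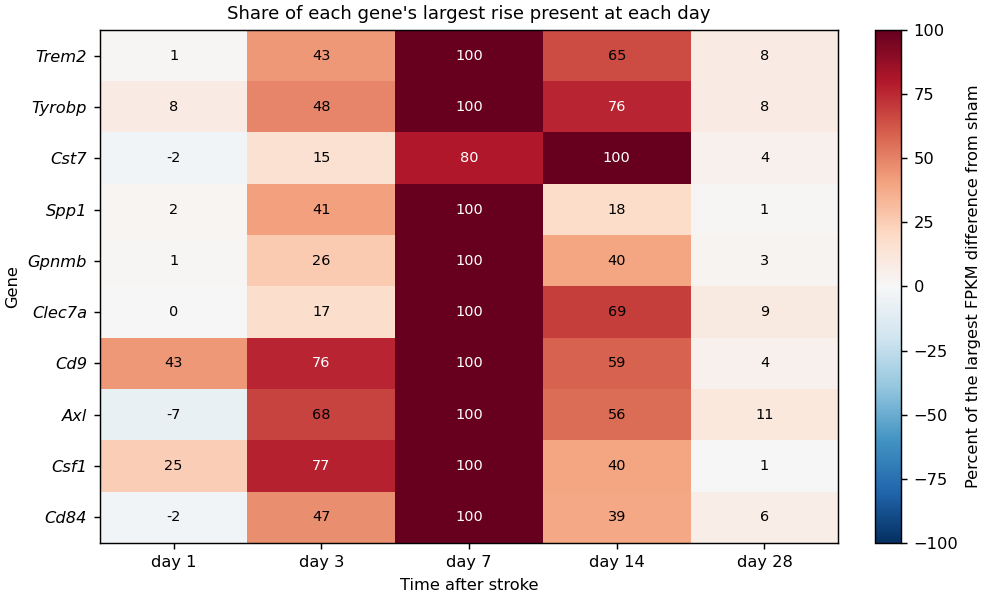
For each gene (rows) and day post-stroke (columns), the FPKM difference from sham as a percent of that gene's largest difference, with a gene that was not listed taken as 0. Day 7 is at 100 in 9 rows, Cst7 is at 100 on day 14, and Cd9 at 43 and Csf1 at 25 are the highest entries of day 1.

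The members were set beside genes that microglia make in most states. In the pan-microglial list, 9 of 10 genes had a value (Itgam had none), and 1, 9, 8, 8 and 0 of the 9 were higher than sham from day 1 to 28. The gene Fcrls was lower on day 28. Its median log2 ratio was 0.30 on day 1, 1.71 on day 3, 2.17 on day 7, 1.75 on day 14 and 0.25 on day 28. The complement genes C1qa, C1qb and C1qc had the largest ratios with 2.61, 2.40 and 2.82 on day 7. The pan-microglial median was thus also highest on day 7. The median over the members compared, with Clec7a and Cst7 as 0 where not listed, lay above theirs by 0.20, 0.34, 0.76, 0.57 and 0.31 from day 1 to 28. With 1 FPKM added in place of 0.1, the day 3 value was -0.07. Over 1 log2 unit above the pan-microglial median stood 4 of 10 members at each of days 7, 14 and 28, namely Spp1, Gpnmb, Cst7 and Clec7a. Gpnmb and Cst7 were under 1 FPKM in sham and Clec7a was not listed there, so these could not come out lower than sham. Among the 7 members with at least 1 FPKM in sham, only Spp1 stood that far above it. The median log2 ratios of these 7 were 0.45, 1.77, 2.72, 1.98 and 0.55 from day 1 to 28. At day 7 Trem2 was above that median by 0.55 and Tyrobp by 0.59. The log2 differences from it on day 7 were -0.68 for Cd9, -0.87 for Csf1 and -1.69 for Axl.

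Of the homeostatic microglia list, 9 of 10 genes had a value, as P2ry13 had none. None was higher on day 1 and 3 of 6 compared were lower. Then 1 of 7, 1 of 7, 2 of 8 and 0 of 6 were higher from day 3 to 28, with 1 lower on day 28. The median log2 ratio was -1.004, 0.54, 0.18, 0.50 and -0.18. Slc2a5, under 1 FPKM in sham, and Cx3cr1, not listed there, entered only through a stroke library and could not come out lower. Among the 6 genes with at least 1 FPKM in sham, 1 was higher on each of days 3, 7 and 14, with medians of 0.62, 0.33 and 0.23. P2ry12, a purine receptor of resting microglia, had 18.0 FPKM in sham, 7.01 on day 1, 21.7 on day 3, 17.7 on day 7, 13.3 on day 14 and 15.6 on day 28. Gpr34 had 2.18 FPKM on day 1 against 7.93 in sham, Selplg was not listed on day 1, and Olfml3 had a log2 ratio of 1.78 on day 7. The list median was thus lowest on day 1 and, on day 7, was 0.18 over the 7 genes compared and 0.33 over those 6. Single genes differed from it, as Siglech was lowest on day 7 with 4.22 FPKM against 7.01 in sham, and Gpr34 had a log2 ratio of 0.96 on day 7. Tmem119 and Cx3cr1, markers that define microglia, were listed in few libraries, Tmem119 on day 7 with 0.961 FPKM and on day 28 with 0.843, and Cx3cr1 on day 1 with 0.0980 and on day 14 with 1.84.

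**Figure D4:**
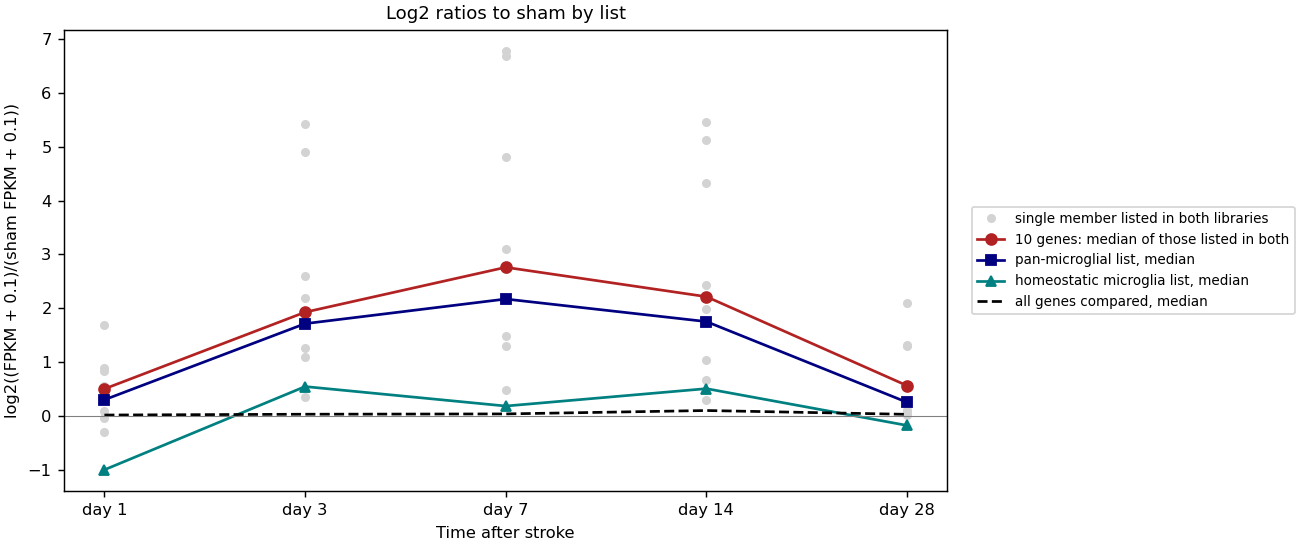
Log2 ratio to sham of FPKM plus 0.1 (y) at each day post-stroke (x) for single members listed in both libraries (grey points), the median of these members, the medians of the pan-microglial and homeostatic lists and the median of all genes compared. A list gene that was not listed in 1 of the libraries counts as 0. The member median reaches 2.76 on day 7 and the pan-microglial median 2.17, while the median of all genes stays within 0.10 of 0.

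Further genes of the microglial program were counted in the same way. Of the 10 first-stage genes of the disease-associated state, 0, 6, 6, 6 and 1 were higher from day 1 to 28 and 1 was lower, on day 1. Their median log2 ratios were 0.35, 1.07, 1.36, 1.54 and 0.14. The highest of these medians was that of day 14, the library in which ratios fell with transcript length, and this list was not corrected for length. Lyz2, lysozyme, had a log2 ratio of 5.71 and Ctsd, a lysosomal protease, of 3.24 on day 7, and H2-D1, an MHC class I gene, of 2.38 on day 14. Apoe, a lipid carrier that TREM2 binds, had 716 FPKM in sham, 287 on day 1, 1386 on day 3, 855 on day 7, 3534 on day 14 and 1212 on day 28, and so was the gene lower on day 1. A list of 20 second-stage genes outside the members shares Cd63 with the first-stage list, so that Cd63 is counted in both. Of these 20, 17 had a value (Cd52, Hif1a and Ank had none). From day 1 to 28, 5 of 13, 11 of 15, 13 of 16, 13 of 16 and 1 of 11 were higher. None was lower, and the medians were 0.67, 1.66, 2.63, 2.14 and 0.09. Many of these genes were under 1 FPKM or not listed in sham and could only come out higher. Among the 9 with at least 1 FPKM in sham, 1, 5, 6, 6 and 0 were higher and none lower, with medians of 0.38, 1.29, 1.91, 1.24 and 0.05. Lgals3, galectin 3, had a log2 ratio of 6.24 on day 7, Lilrb4a of 4.51 on day 3 and Igf1 of 3.59 on day 7. The median of these 9 genes was highest on day 7.

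In the list of TREM2 signalling, which has 18 genes with Trem2 and Tyrobp among them, 1 of 13, 9 of 16, 11 of 15, 7 of 14 and 1 of 12 were higher from day 1 to 28, with 1 lower on day 1. The medians were 0.08, 1.25, 1.58, 1.10 and 0.08. Of the 11 genes with at least 1 FPKM in sham, 0, 6, 7, 5 and 0 were higher. Ms4a6d, of the MS4A family that is known to bear on soluble TREM2, had 0.524 FPKM in sham. It thus entered only through the stroke library and could not come out lower. Its log2 ratio was 3.49 on day 7 and, at 1.35 FPKM, 1.21 on day 28, where Trem2 was under the threshold. Lat2, a signalling adaptor, had 0.373 FPKM in sham and 3.65 on day 7. Syk, the kinase below TREM2 and dectin-1, had 1.011 FPKM in sham, 0.624 on day 1, 1.93 on day 3, 2.59 on day 7, 1.88 on day 14 and 0.859 on day 28. Of the 5 partners of dectin-1, 2 were higher on day 1, 1 on day 3, 3 on day 7 and none on day 14 or 28, with none lower. Besides Syk on day 7 these were Bcl10, with a log2 ratio of 1.04 on day 1, Plcg2, with 1.33 on day 3 and 1.19 on day 7, and Malt1, with 1.12 on day 1 and 1.04 on day 7. Malt1 had 0.569 FPKM in sham and could not come out lower. Among the 4 partners with at least 1 FPKM in sham, 1, 1, 2, 0 and 0 were higher from day 1 to 28. Bcl10 had 3.50 FPKM in sham and 7.30 on day 1, and Card9 7.12 FPKM in sham and 6.71 on day 7.

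As a description over the 6 libraries, the mean profile of the 8 members listed in every library was set against 3581 genes listed in every library with a log2 range of at least 1, and 244 of them had a Pearson r over 0.9. The highest were Cyth4 with 0.998, the lysosomal genes Hexa and Grn with 0.994 each, then Xlr, Mmp14, Creg1, Arhgap45 and Itgb2, and Cyp4v3 and Themis2 with 0.988 each. Grn, progranulin, had 14.7 FPKM in sham, 68.1 on day 3, 111 on day 7, 56.8 on day 14 and 21.1 on day 28. With 6 points that share the sham and stroke libraries, many genes reach such values.

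Markers of other cells also differed between the libraries. All 7 markers of neurons and all 7 of astrocytes were listed in every library, and their summed FPKM ran from 1135 to 1610 for neurons and from 857 to 1512 for astrocytes. The markers of monocytes and monocyte-derived macrophages, with 7 of 8 holding a value, summed to 25.3 FPKM in sham, 74.1 on day 1, 221 on day 3, 112 on day 7, 84.5 on day 14 and 29.8 on day 28, most of it from Vim and Fn1, which other cells also make. Of the markers that define these cells, Ccr2 was at most 0.199 FPKM, Ly6c2 at most 3.56, on day 14, and Arg1 was 12.5 on day 3 and 1.11 on day 7. The 6 markers of border macrophages summed to 5.24, 7.63, 19.2, 15.8, 7.52 and 6.54 FPKM from sham to day 28, those of neutrophils (6 of 7 with a value) to 0.0729, 19.3, 2.00, 1.49, 9.29 and 0, and those of fibroblasts (5 of 6) to 24.9, 28.3, 84.9, 105, 93.1 and 25.3. T cell markers (4 of 6) summed to at most 1.99 FPKM, those of endothelial cells to between 12.9 and 31.1, and those of oligodendrocytes (5 of 6) to between 1548 and 2177. The part of these cells in the levels of the 10 genes was not tested. The files held between 83501 rows on day 14 and 99187 on day 7, and 38 genes with a median of at least 5 FPKM in the other libraries were not listed on day 14, against 2 to 7 in each other library.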

How the data were processed

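RNA-seq of mouse cerebral cortex was analysed as 6 libraries, 1 per group. The authors deposited FPKM values for single transcript starts, ends and splicing events, scaled to transcript length and library size, and events at 0 are left out. Trimmomatic 0.30, HISAT2 2.0.1, HTSeq 0.6.1 and the build mm10 (GRCm38) are named in the submitters' processing notes, while the program that made the event values is not given in the sources used here. Repeated rows were dropped. A gene's value was the largest of its summed starts, its summed ends and any single event, a rule chosen in earlier work on these data with the study's own lists of changed genes in view. The members and gene lists, too, were chosen with earlier results of these data known.

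Libraries were compared by log2((FPKM + 0.1)/(sham FPKM + 0.1)) where 1 of the 2 had at least 1 FPKM, with a threshold of 1 and no test. Genes absent from a library's file are called not listed and count as 0. Depth per library is unknown, so no interval or detection floor is given. Named are the 10 members, the 3 genes of each list with the largest ratio among those listed in sham, every gene of lists of 5 or fewer, and the 10 nearest profiles. Csf1r, Il34, Apoe and Syk were added because a member binds or signals through them, and Tmem119, Cx3cr1 and single markers because they define their cells, all after their values were seen. The alternatives changed the pseudocount, filter, threshold, scaling, gene value and transcript length. The length correction divided each library by its median trend over 20 bins of transcript length. Gene positions are from GENCODE M21, to which 15411 identifiers matched. The scripts were tested on simulated data. Work was done in Python 3.11.15 with scipy 1.17.1, pandas 2.3.3, numpy 2.4.6 and matplotlib 3.10.9.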

Additional observations from a re-analysis of the deposited data

How the results depend on the processing

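In all, 13 alternatives were run at first, and 233 of 247 counts, medians and peak or onset values kept their direction and stayed close to the reported value. Part of this total could not change. The threshold does not enter the medians or peak days, and the pseudocount and filter do not enter the peak days. The members took no value from events outside their annotated spans, so leaving such events out did not alter them. The total is therefore no measure of how firm the results are. A log2 threshold of 2 gave 0 members higher on day 1, 5 on day 3 and 2 on day 28, with 0 onsets on day 1 and 5 on day 3. A threshold of 0.5 gave 4 higher on day 1 and 7 on day 28, with 4 onsets on day 1 and 5 on day 3. Summed starts gave 2 higher and 2 onsets on day 1, and a filter at 5 FPKM left 1 higher on day 28. Counting only members with at least 1 FPKM in the reference library, chosen after seeing the data, gave 5 of 7 higher on day 14, 1 of 7 on day 28 and 4 of 7 higher on day 3 than on day 1. The length correction left 0 members highest on day 14, which turns on Cst7. A pseudocount of 1 FPKM turned the median of the members over the pan-microglial level on day 3 to -0.0665. Of single genes, that pseudocount gave log2 ratios of 3.71 for Cst7 on day 14, and of 5.52 for Gpnmb and 2.39 for Cd84 on day 7. By summed ends or by the larger of both sums Cd84 had 0.52 on day 7, from end values under the 0.1 FPKM added. Over all alternatives Trem2 stayed between 2.61 and 2.73 on day 7, Tyrobp between 2.69 and 2.77 and Spp1 between 6.54 and 6.72. With 1 pooled library per group, no alternative shows how far mice differ. No paired analysis was possible because the result comes from no test.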
